A study of Drosophila melanogaster with 12 samples.

Results

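The Malpighian tubule transport genes are a set of 8 Drosophila genes with known work in the renal tubules: Uro, Irk1, Irk2, Irk3, CapaR, Lkr, Drip and Prip. They were picked by name and read from every probe set that the platform annotation, brought to present symbols, assigns to them. Of the 8 genes, 7 had a probe set. Together these hold 9 of the 18769 probe sets used, on arrays with 11982 named genes in all. The platform annotation named 6 of the genes. The probe set of Uro was named by the supplementary tables of the study alone, and CapaR was not analysed here. Those tables list transcripts chosen for a difference between the genotypes on these same arrays, so the genotype difference of Uro is given as a description and Uro is left out of the counts below.

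The study used 12 arrays of the Affymetrix Drosophila Genome 2.0 type and asked whether the Nub-PD protein holds immune genes down in healthy flies. The groups were nub1 gut, wt gut, nub1 carcass and wt carcass, with 3 arrays each. The arrays of a group came from 3 pools of 20 females 7 to 12 days old that had been kept together with males. Whether gut and carcass of a genotype came from the same flies is not stated, and they were compared as unpaired. Carcass is what remains of the fly after head and gut are taken away. The nub1 flies were homozygous for nub1, a transposon insertion at the promoter of the nub-RD transcript, in a strain that also carries b1 and pr1. The wt flies are labelled with the strains OregonR and w1118 together, whereas the design text of the series names OregonR alone. The effect of nub1 and that of the rest of the strain background thus cannot be told apart. The labels do not say whether the tubules, which open into the gut, were kept with the gut or stayed in the carcass.

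The tubules of the fly are blind tubes that make the primary urine. Principal cells carry an apical proton pump whose gradient drives potassium and sodium into the lumen, and potassium enters these cells from the blood side through inward rectifier channels. Stellate cells pass chloride and water and answer to leucokinin, while principal cells answer to capa peptides and other diuretic hormones. The same cells clear urate, organic ions and metals.

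The values are MAS5 signals on a linear scale, set so that the trimmed mean of each array is 100. The array medians lay between 9.85 and 12.7 in nub1 gut, 14.7 and 14.9 in wt gut, 7.93 and 9.13 in nub1 carcass, and 7.81 and 11.1 in wt carcass. A signal under 10 was treated as too close to background to be measured. Fold changes are differences of log2(signal + 10), fitted with limma over the 4 groups. A probe set was called at a Benjamini-Hochberg adjusted p under 0.05 together with a fold of at least 2. Where genes are counted at an unadjusted p under 0.05, the share of all probe sets at that p was not counted. Such counts do not set a list apart from the rest of the arrays. With 3 arrays against 3, an exact permutation test cannot go below p = 0.1. Precision is limited by how few arrays there are. Levels of different probe sets are not comparable with each other.

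The signal of nub, from the brightest of its 3 probe sets, was 420, 385 and 566 on the nub1 gut arrays and 282, 203 and 317 on the wt gut arrays (log2 fold change 0.75, SE 0.19, adjusted p = 0.0097 from limma). It stayed under 10 on all carcass arrays. This probe set is not tied to the transcript that nub1 affects, so it does not check the labels. Midgut genes separated the tissues, with a mean log2 level of 11.92 to 12.5 on nub1 gut arrays, 12.09 to 12.5 on wt gut arrays, 8.51 to 9.15 on nub1 carcass arrays and 8.8 to 9.39 on wt carcass arrays. Markers of other organs set some arrays apart from their group. The 12 ovary and eggshell genes had mean log2 levels of 5.01, 9.97 and 6.68 on nub1 gut arrays 1 to 3 and of 5.03, 8.73 and 10.32 on wt gut arrays 1 to 3, with 11.58 to 11.81 on the carcass arrays. The 4 male ejaculatory duct genes had levels of 6.72, 4.17 and 8.56 on nub1 gut arrays 1 to 3 and of 5.16 on nub1 carcass array 2, against 3.47 to 3.97 on the remaining carcass and wt gut arrays. Where a named gene lost its call without these arrays, the value without them is given. That leaves nub1 gut with array 2 alone, which had the highest eggshell level and the lowest midgut level (11.92) of the nub1 gut arrays. Duct and eggshell content cannot be told apart in such values.

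**Figure D1:**
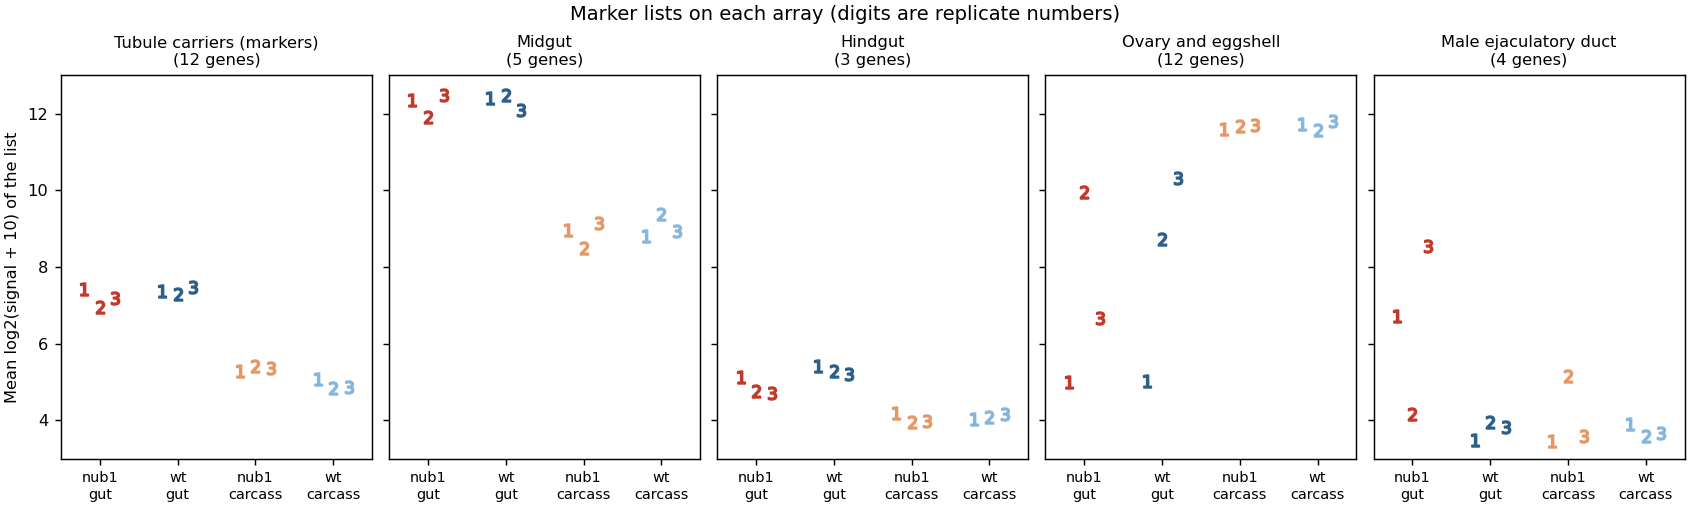
Mean log2(signal + 10) of 5 marker lists on each array, drawn as replicate numbers in nub1 gut, wt gut, nub1 carcass and wt carcass. The tubule carriers lie at 6.96 to 7.47 in the gut groups and 4.84 to 5.41 in the carcass groups, and the eggshell and ejaculatory duct lists spread within the gut groups.

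Among the 6 counted tubule transport genes, Irk3 alone was called between the genotypes. It was lower in nub1 gut, while no gene was called higher in gut and none was called in either direction in carcass. Of all 9782 probe sets tested in gut, 3.15% were called higher and 6.13% lower, and of the 8855 tested in carcass 2.77% were called higher and 1.94% lower. Against these shares, 1 call among 6 genes in gut and 0 among the 5 tested in carcass are too few to set the genes apart from the rest of the arrays. At an unadjusted p under 0.05 from limma, Irk2, Drip and Prip were higher in nub1 gut and Irk3 lower, and Irk3 alone reached 2-fold. In carcass Drip alone of the 5 was different at that p, and it stayed under 2-fold. The median log2 fold change of the 6 genes was 0.24 in gut, against −0.06 over all probe sets tested, and that of the 5 genes tested in carcass was −0.00, against −0.02.

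**Figure D2:**
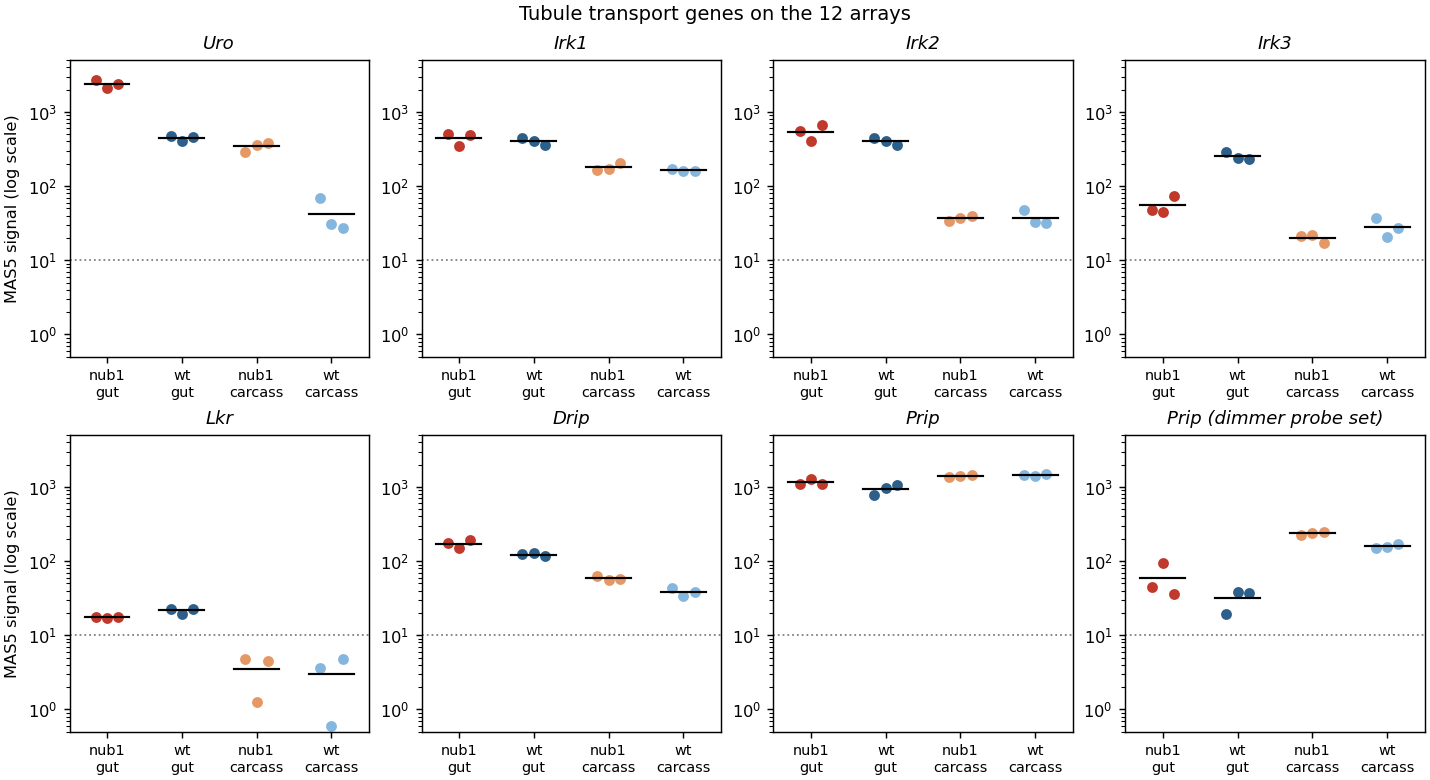
MAS5 signal (log scale) of the tubule transport genes on each of 3 arrays in nub1 gut, wt gut, nub1 carcass and wt carcass, with bars at the group means and a dotted line at a signal of 10. Irk3 lies at 44.6 to 72.3 in nub1 gut and 234 to 286 in wt gut, and Lkr falls under 10 in both carcass groups.

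Uro encodes urate oxidase, the peroxisomal enzyme that breaks down uric acid and that flies make in the tubules. Its signal was 2670, 2128 and 2389 on the nub1 gut arrays, against 468, 403 and 461 on the wt gut arrays. In carcass it was 292, 361 and 382 on the nub1 arrays, against 69.1, 31.2 and 27.1 on the wt arrays. All 3 nub1 arrays lay above all 3 wt arrays in each tissue. The group means were 2396 ± 271 in nub1 gut and 444 ± 35.8 in wt gut (SD, n = 3 pools), a ratio of 5.40, and 345 ± 47.3 in nub1 carcass and 42.5 ± 23.2 in wt carcass, a ratio of 8.12. The log2 fold changes were 2.40 in gut and 2.83 in carcass, which differ by −0.43 (SE 0.33). Since this probe set owes its name to a list drawn up from the same contrast, these values are a description. In bulk samples such as these, fewer cells of a type and less RNA per cell cannot be told apart.

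The level of Uro also differed with tissue. Gut exceeded carcass by 2.76 ± 0.23 on the log2 scale in nub1 flies (± SE, adjusted p = 6.8e-07 from limma) and by 3.20 ± 0.23 in wt flies (adjusted p = 1.7e-07). The 4 groups did not overlap on any array, in the order nub1 gut, wt gut, nub1 carcass, wt carcass. The signal in nub1 carcass, at 292 to 382, came just under that in wt gut, at 403 to 468.

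The 3 inward rectifier genes, which encode potassium channels of the principal cells, behaved differently in nub1 gut. Irk3 had signals of 48.2, 44.6 and 72.3 on the nub1 gut arrays, against 286, 240 and 234 on the wt gut arrays. The highest nub1 array lay far below the lowest wt array. Irk3 fell in nub1 gut, by −2.04 ± 0.18 on the log2 scale (± SE, adjusted p = 8.3e-06 from limma), so that wt gut had 4.60 times its mean signal. In carcass it had 21.5, 21.8 and 16.9 on the nub1 arrays and 37.1, 20.8 and 27.2 on the wt arrays. These ranges overlapped, and the log2 fold change was −0.33 (95% interval −0.73 to 0.07, adjusted p = 0.29). The difference between the effects in gut and in carcass was itself past the threshold, at −1.70 (SE 0.26, adjusted p = 0.0015). Of 10199 probe sets tested for such a difference, 1.86% were called higher in gut and 4.7% lower.

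The fall of Irk3 in gut did not rest on single arrays or settings. Over all 24 alternatives its log2 fold change stayed between −2.26 and −1.72 and its adjusted p at 0.019 or below. Without nub1 gut arrays 1 and 3 and nub1 carcass array 2, which carry the ejaculatory duct transcripts, it was −2.26. Without the gut arrays of higher eggshell signal it was −2.10. The difference between the tissues was past the threshold in all 22 alternatives that give one, between −1.89 and −1.52.

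Irk1 had signals of 510, 349 and 493 on the nub1 gut arrays and 445, 406 and 355 on the wt gut arrays. In carcass they were 167, 170 and 203 on the nub1 arrays and 171, 159 and 157 on the wt arrays. The genotypes overlapped in each tissue. The log2 fold change was 0.15 in gut (95% interval −0.16 to 0.46, adjusted p = 0.45 from limma) and 0.13 in carcass (95% interval −0.18 to 0.45, adjusted p = 0.65), and the 2 effects differed by 0.01 (95% interval −0.43 to 0.46). The effect in gut was −0.19 without the arrays that carry ejaculatory duct transcripts. A dimmer probe set of Irk1 had signals of 0.448 to 2.04 on the 12 arrays and was not tested.

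Irk2 had signals of 560, 405 and 659 on the nub1 gut arrays and 446, 403 and 363 on the wt gut arrays. The highest values were on nub1 gut arrays 1 and 3, the ones with ejaculatory duct transcripts, and nub1 gut array 2 lay within the wt range. Array 2 was also the nub1 gut array with the highest eggshell level. The log2 fold change was 0.39 (SE 0.17, adjusted p = 0.10 from limma), and 0.01 without those arrays and nub1 carcass array 2. The part of duct or eggshell tissue in this value was not tested. In carcass Irk2 had 33.6, 37.6 and 39.5 on the nub1 arrays and 47.7, 32.4 and 32.1 on the wt arrays, a log2 fold change of −0.00 (95% interval −0.38 to 0.38). The effects in gut and in carcass differed by 0.39 (95% interval −0.15 to 0.93, adjusted p = 0.33).

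Lkr encodes the leucokinin receptor of stellate cells, which sets chloride and water flow. It was dim on all arrays. Its signal was 17.9, 17.0 and 17.6 on the nub1 gut arrays and 22.3, 19.6 and 22.9 on the wt gut arrays. The groups did not overlap, but the log2 fold change was −0.20 (95% interval −0.54 to 0.14, adjusted p = 0.34 from limma). On the carcass arrays the signal was 4.83, 1.25 and 4.47 in nub1 flies and 3.61, 0.596 and 4.73 in wt flies. All 6 values are under 10, so the genotypes were not compared in carcass.

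Drip and Prip encode aquaporins that carry water across stellate cells. In the Release 6 gene order of RefSeq their genes are separated by 1 protein-coding gene. Drip had signals of 177, 151 and 190 on the nub1 gut arrays and 124, 127 and 117 on the wt gut arrays. In carcass it had 62.7, 56.5 and 57.8 on the nub1 arrays and 43.2, 33.7 and 38.4 on the wt arrays. Every nub1 array lay above every wt array of its tissue. The log2 fold change was 0.46 in gut (SE 0.11, adjusted p = 0.0073 from limma) and 0.51 in carcass (SE 0.11, adjusted p = 0.0069). Neither reached 2-fold. The 2 effects differed by −0.06 (95% interval −0.39 to 0.28). Without the arrays that carry ejaculatory duct transcripts the effect in gut was 0.28 (adjusted p = 0.13), and quantile normalization took the adjusted p in carcass to 0.050.

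Prip had signals of 1111, 1277 and 1094 on the nub1 gut arrays and 770, 968 and 1047 on the wt gut arrays. The groups did not overlap, though the gap between them was smaller than the spread within wt gut. The log2 fold change was 0.33 (SE 0.11, adjusted p = 0.034 from limma), under 2-fold, and 0.20 without wt gut array 1 (adjusted p = 0.13). In carcass Prip had 1348, 1393 and 1440 on the nub1 arrays and 1434, 1404 and 1493 on the wt arrays, a log2 fold change of −0.05 (95% interval −0.29 to 0.19). The effects in the 2 tissues differed by 0.38 (SE 0.15, adjusted p = 0.13).

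The dimmer probe set of Prip gave other values. It had 45.2, 95.4 and 36.1 on the nub1 gut arrays and 19.5, 38.8 and 37.1 on the wt gut arrays, which overlap. On the carcass arrays it had 223, 240 and 247 in nub1 flies and 150, 154 and 169 in wt flies, which do not. Its log2 fold changes were 0.66 in gut (SE 0.27, adjusted p = 0.074 from limma) and 0.56 in carcass (SE 0.27, adjusted p = 0.21), so that in carcass the 2 probe sets of Prip had opposite signs and neither passed the threshold.

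**Figure D3:**
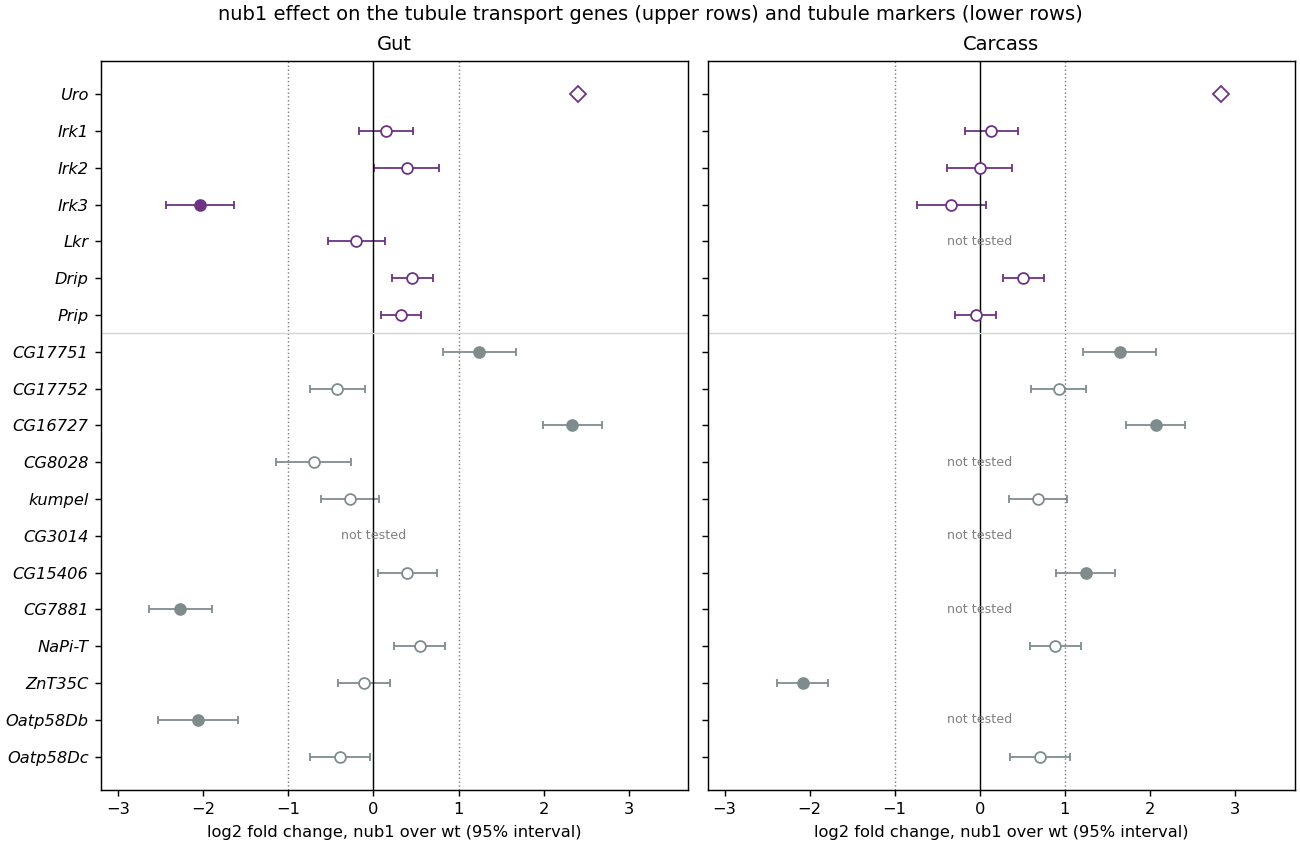
Log2 fold change of nub1 over wt in gut (left) and carcass (right) for the tubule transport genes and 12 tubule marker genes, with 95% intervals from limma. Filled symbols are called, dotted lines mark a 2-fold change, and Uro (diamonds, 2.40 and 2.83) is shown without an interval because its probe set was named from this contrast.

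The same genes were also compared between gut and carcass in each genotype. All 5 midgut markers tested were called higher in gut as well, so a higher level in gut does not place a transcript in the tubules. Of the 6 counted genes, 5 were called higher in gut than in carcass in nub1 flies and 5 in wt flies, and none lower. These are Irk1, Irk2, Irk3, Lkr and Drip. Lkr entered the test through gut alone, as its carcass arrays were all under 10. Its bound in nub1 flies, at least 1.75-fold, lies under the 2-fold minimum. Over all probe sets tested, 15.6% were called higher in gut and 22.7% lower in nub1 flies, and 17.8% higher and 21.9% lower in wt flies. The median log2 fold change of the 6 genes was 1.18 in nub1 flies and 1.38 in wt flies, against −0.46 and −0.32 over all probe sets. Centring each array on its bright probe sets in place of the MAS5 scaling raised the median of all probe sets by 0.50 in each genotype, and quantile normalization raised it by 0.12 in nub1 flies. With the centring, 77.6% of calls in nub1 flies and 76.6% in wt flies were higher in gut, against 40.8% and 44.8% with the values as deposited. Without the arrays that carry ejaculatory duct transcripts, which leaves nub1 gut with array 2 alone, 2 of the 6 genes were called in nub1 flies, and 3 were at a pseudocount of 32.

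Irk2 had the largest of these tissue differences among the 6 genes. Its log2 fold change of gut over carcass was 3.53 in nub1 flies (SE 0.17, adjusted p = 6.5e-09 from limma) and 3.14 in wt flies (SE 0.17, adjusted p = 1.7e-08). The gut arrays had 363 and more and the carcass arrays 47.7 and less. Irk1, by contrast, had log2 fold changes of 1.27 in nub1 flies and 1.25 in wt flies (SE 0.14 each, adjusted p = 8.1e-06 and 7.6e-06), with 2.51 and 2.48 times as much signal in gut as in carcass. Without the arrays that carry ejaculatory duct transcripts, Irk1 was under 2-fold in nub1 flies, at 0.89.

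Irk3 was higher in gut, by 1.09 on the log2 scale in nub1 flies (SE 0.18, adjusted p = 1.7e-04 from limma) and 2.80 in wt flies (SE 0.18, adjusted p = 7.5e-08). The value in nub1 flies lies near the 2-fold minimum. It was 0.91 without nub1 gut array 3 and 0.91 without the arrays that carry ejaculatory duct transcripts, with 0.73 at a pseudocount of 32. The order of its levels was wt gut, nub1 gut, wt carcass and nub1 carcass, and the carcass groups overlap.

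Lkr, with all carcass arrays under 10, was at least 1.75-fold higher in gut in nub1 flies and at least 2.16-fold higher in wt flies (adjusted p = 6.6e-05 and 1.1e-05 from limma). These bounds set the gut mean against a signal of 10. The call in nub1 flies was lost under 2-fold without nub1 carcass array 2, without the arrays that carry ejaculatory duct transcripts, at a pseudocount of 32 and after quantile normalization, and the last 2 took it away in wt flies too. Drip was higher in gut by 1.40 in nub1 flies and 1.46 in wt flies (SE 0.11 each, adjusted p = 3.7e-07 and 2.4e-07). Its 4 groups did not overlap, in the order nub1 gut, wt gut, nub1 carcass, wt carcass.

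Prip ran the other way. The log2 fold change of gut over carcass was −0.26 in nub1 flies (SE 0.11, adjusted p = 0.038 from limma), which turned to 0.24 with arrays centred on bright probe sets, and −0.64 in wt flies (SE 0.11, adjusted p = 1.6e-04), under 2-fold. Its dimmer probe set was called lower in gut in each genotype, by −1.93 in nub1 flies and −2.04 in wt flies (SE 0.27 each, adjusted p = 3.6e-05 and 2.3e-05). Carcass thus held 4.02 times the gut signal of this probe set in nub1 flies and 4.96 times in wt flies.

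Transcripts of a second list served to read the tubule content of the samples. It holds 12 genes of solute and metal carriers that are known for high expression in tubules, and all 12 were on the arrays. Their summed signal was 2261 to 3353 in nub1 gut and 2706 to 2912 in wt gut, against 431 to 533 in nub1 carcass and 376 to 430 in wt carcass. Mean log2 levels were 6.96 to 7.44 in nub1 gut and 7.29 to 7.47 in wt gut, ranges that overlap, and 5.29 to 5.41 in nub1 carcass and 4.84 to 5.09 in wt carcass, ranges that do not. CG3014 was under 10 on all nub1 gut arrays. CG8028, CG3014 and Oatp58Db were so on all nub1 carcass arrays, and CG16727 on all wt carcass arrays.

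Of the 11 tubule markers tested between gut and carcass, 10 were called higher in gut in nub1 flies and 10 in wt flies, with medians of 2.33 and 2.81. Over all probe sets tested, 15.6% and 17.8% were called higher. At a pseudocount of 32 the count was 7 in nub1 flies and 10 in wt flies. CG8028 (0.75), CG7881 (0.90) and ZnT35C (0.89) were then under 2-fold in nub1 flies. Without the arrays that carry ejaculatory duct transcripts ZnT35C, a zinc transporter, was under 2-fold in nub1 flies, at 0.90. The exception in wt flies was ZnT35C, which had 97.2, 110 and 130 on the wt gut arrays and 200, 196 and 220 on the wt carcass arrays (log2 fold change −0.82). In nub1 flies it was Oatp58Db, an organic anion transporter, at least 1.70-fold higher in gut. Transcripts of the list were thus measured in both tissues, at higher levels in gut. How much of the carcass signal came from tubule pieces left in the body cavity was not tested.

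Between the genotypes the tubule markers split. In gut 2 of 11 were called higher and 2 lower, with a median of −0.28. Over all probe sets tested in gut, 3.15% were called higher and 6.13% lower. CG16727 had 372, 285 and 347 on the nub1 gut arrays and 50.0, 58.7 and 65.6 on the wt gut arrays (log2 fold change 2.34, SE 0.16, adjusted p = 8.5e-07 from limma). CG17751 rose by 1.24 (adjusted p = 5.2e-04), which fell to 0.99 without nub1 gut array 1 and 0.73 without the arrays that carry ejaculatory duct transcripts. The test named in the methods gave it an adjusted p of 0.15, and with that test 1 of the 11 was called higher in gut. The lower ones were CG7881, with 60.8, 33.0 and 53.6 on the nub1 gut arrays and 263, 272 and 271 on the wt gut arrays (−2.27, adjusted p = 1.9e-06), and Oatp58Db, with 20.5, 14.1 and 17.2 against 106, 95.6 and 108 (−2.06, adjusted p = 2.4e-05). No other gene of the list was called lower in nub1 gut.

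Some of these carrier genes are neighbours. CG17752 lies between CG17751 and CG16727 with no other protein-coding gene in between. Its log2 fold change was −0.42 in gut (adjusted p = 0.042 from limma, under 2-fold), where both neighbours were called higher, and 0.93 in carcass, where both were called higher too. Oatp58Dc is the next gene to Oatp58Db, and its log2 fold change in gut was −0.40 (adjusted p = 0.076). Differences between neighbours were not tested.

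In carcass 3 of the 8 tubule markers tested were called higher in nub1 flies and 1 lower. Over all probe sets tested in carcass, 2.77% were called higher and 1.94% lower. At a pseudocount of 1, or with the test named in the methods, 5 of the 8 markers were called higher. CG16727 was at least 5.70-fold higher (adjusted p = 4.1e-06 from limma), CG17751 rose by 1.65 (adjusted p = 1.3e-04) and CG15406, of the sugar transporter family, by 1.24 (adjusted p = 2.0e-04, and 0.89 at a pseudocount of 32). ZnT35C fell by 2.08 on the log2 scale (adjusted p = 1.3e-06), with 37.7, 36.1 and 49.3 on the nub1 carcass arrays and 200, 196 and 220 on the wt carcass arrays. NaPi-T (0.89), CG17752 (0.93), kumpel (0.68) and Oatp58Dc (0.71) had adjusted p-values between 8.0e-04 and 0.010 and stayed under 2-fold. CG16727 and NaPi-T entered the test through nub1 carcass alone. Of the 4 genes not tested, CG8028, CG3014 and Oatp58Db had a mean signal of 3.78 to 6.43 in nub1 carcass and 8.49 to 10.3 in wt carcass, and CG7881 was near 10 in both groups.

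For each gene the carcass signal can be set as a percent of the gut signal of the same genotype. Over the 6 tubule markers with a signal of at least 10 on all 12 arrays, the median was 17.0% in nub1 flies, with a range of 14.6% to 39.8%, and 7.92% in wt flies, with a range of 4.99% to 182%. The value was higher in nub1 flies for CG17751, CG17752, kumpel, CG15406 and Oatp58Dc, and lower for ZnT35C, at 39.8% in nub1 flies and 182% in wt flies. The other markers had carcass arrays under 10, so no direction is read from them. The transport genes did not follow as a set. Uro had 14.4% in nub1 flies and 9.57% in wt flies, and Irk3 36.5% and 11.2%. Irk1 had 39.9% and 40.4%, Irk2 6.82% and 9.25%, Drip 34.1% and 31.4%, and Prip 120% and 155%. These percents have the same arrays behind them as the contrasts above and carry no test of their own.

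**Figure D4:**
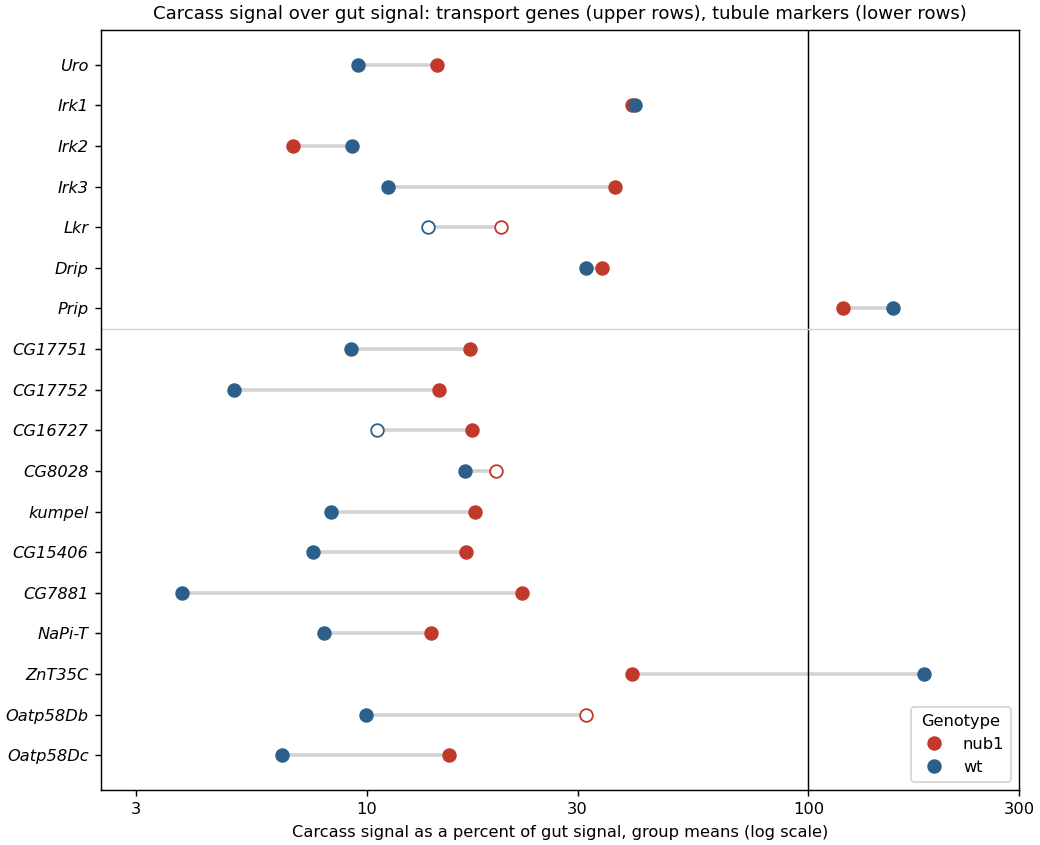
Mean carcass signal as a percent of mean gut signal (log scale) in nub1 flies (red) and wt flies (blue) for the tubule transport genes and the 11 tubule markers measured in gut. Open symbols have all 3 carcass arrays under 10, and of the 6 markers at 10 or more on every array 5 lie further right in nub1 flies, whereas Irk1 and Drip nearly coincide.

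The difference of the nub1 effect between gut and carcass was called for 5 of the 11 tubule markers tested, 1 of them higher in gut and 4 lower. Over all probe sets tested for it, 1.86% were called higher in gut and 4.7% lower. ZnT35C had 1.97 (adjusted p = 8.6e-05 from limma). CG17752 had −1.35 (adjusted p = 0.0016) and Oatp58Dc −1.11 (adjusted p = 0.0081). CG7881 and Oatp58Db were called too (adjusted p = 1.2e-04 and 0.0034), but their carcass signals lay near or under 10, so that the carcass effect was not measured and the size of the difference is not given. Oatp58Dc was under 2-fold without nub1 gut array 2 (−0.98), at a pseudocount of 32 and after quantile normalization, and Oatp58Db had an adjusted p of 0.062 at a pseudocount of 1.

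Other aquaporins and glycerol channels were represented by bib and Eglp2. bib, a channel protein known for its part in neurogenesis, had 7.69, 24.9 and 13.3 on the nub1 gut arrays and 104, 43.7 and 66.6 on the wt gut arrays. bib entered the gut test through wt gut alone, as nub1 gut array 1 was under 10. It fell in nub1 gut by 1.67 on the log2 scale (SE 0.27, adjusted p = 6.2e-04 from limma). Its signal was near 10 in both carcass groups, where a fall could hardly show. bib had a fitted difference between tissues of −1.58 (adjusted p = 0.019), which depends on the pseudocount and is no measure of size. The test named in the methods gave an adjusted p of 0.14 for its fall in gut, and the difference was −1.02 (adjusted p = 0.12) without the arrays that carry ejaculatory duct transcripts. Eglp2, a glycerol channel of principal cells, was higher in gut than in carcass by 2.90 in nub1 flies and 3.86 in wt flies (adjusted p = 2.0e-08 and 1.8e-09).

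The proton pump genes showed a difference between the tissues and almost none between the genotypes. Of 17 subunit genes of the vacuolar proton pump, 14 were called higher in gut in nub1 flies and 14 in wt flies, and none lower, with medians of 1.43 and 1.47. After quantile normalization 6 were called higher in nub1 flies and 6 in wt flies. Vha100-4, an isoform of the membrane subunit a, was under 10 on all carcass arrays and at least 38.2-fold higher in gut in nub1 flies and at least 27.3-fold higher in wt flies (adjusted p = 8.5e-09 and 1.2e-08 from limma). Between the genotypes 1 of the 17 was called in gut and none of 16 in carcass by limma, where 0 had an unadjusted p under 0.05. The gene called was VhaM9.7-a, dim at 13.1, 1.25 and 14.1 on the nub1 gut arrays and 36.6, 28.3 and 30.3 on the wt gut arrays (−1.17, adjusted p = 0.0028). VhaM9.7-a entered this test through wt gut alone, as nub1 gut array 2 was under 10. It was under 2-fold without nub1 gut array 2 (−0.81), without the gut arrays of higher eggshell signal (−0.98) and at a pseudocount of 32 (−0.63), and the test named in the methods gave an adjusted p of 0.070. The pump also works in other epithelia, midgut among them.

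Of 13 genes for cation and chloride transport beside the Irk genes, 7 were called higher in gut in nub1 flies and 7 in wt flies, with none lower and medians of 1.15 and 1.03. The largest tissue differences were those of Nha1, a cation and proton exchanger, at 3.25 in nub1 flies and 2.47 in wt flies (adjusted p = 1.8e-09 and 1.4e-08 from limma). NKCC, the sodium, potassium and chloride cotransporter, had 3.09 in nub1 flies and 2.20 in wt flies (adjusted p = 3.9e-08 and 7.0e-07). In nub1 flies it entered the test through gut alone, as 2 of its nub1 carcass arrays were under 10. Its value there depends on the pseudocount. Nha2 and nrv3, a subunit of the sodium pump, followed with 2.26 and 2.12 in nub1 flies. ClC-a, the chloride channel of stellate cells and singled out for that role after its values were seen, had 1.15 in nub1 flies and 1.27 in wt flies (adjusted p = 2.6e-05 and 1.2e-05), and 0.75 in nub1 flies without the arrays that carry ejaculatory duct transcripts. None of the 13 was called between the genotypes in gut, in carcass or for the difference by limma. At an unadjusted p under 0.05 the count was 4 in gut, 5 in carcass and 5 for the difference. The share of all probe sets at that p was not counted, so these counts do not set the list apart.

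Of 10 genes for diuretic peptides and their receptors, Lkr included, 5 could be tested between the genotypes in gut and 6 in carcass, and none was called. At an unadjusted p under 0.05 the count was 0 in gut and 1 in carcass. Dh31-R, the receptor for the peptide Dh31, was higher in gut by 2.09 in nub1 flies and 2.34 in wt flies (adjusted p = 7.2e-07 and 2.3e-07 from limma). Dh44-R2, a receptor for Dh44, had 20.2, 23.5 and 23.1 on the nub1 carcass arrays and 8.23, 2.35 and 9.19 on the wt carcass arrays. It entered the test through nub1 carcass alone, since all its wt carcass arrays were under 10. Set against 10, it was at least 2.22-fold higher in nub1 carcass. Its fitted log2 fold change of 0.99 misses the minimum and passes it under some alternatives. Dh44-R2 was singled out after its values were seen, so these values are a description. TyrR and Dh44-R1, the other receptors of the list, were under 10 on all 12 arrays.

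**Figure D5:**
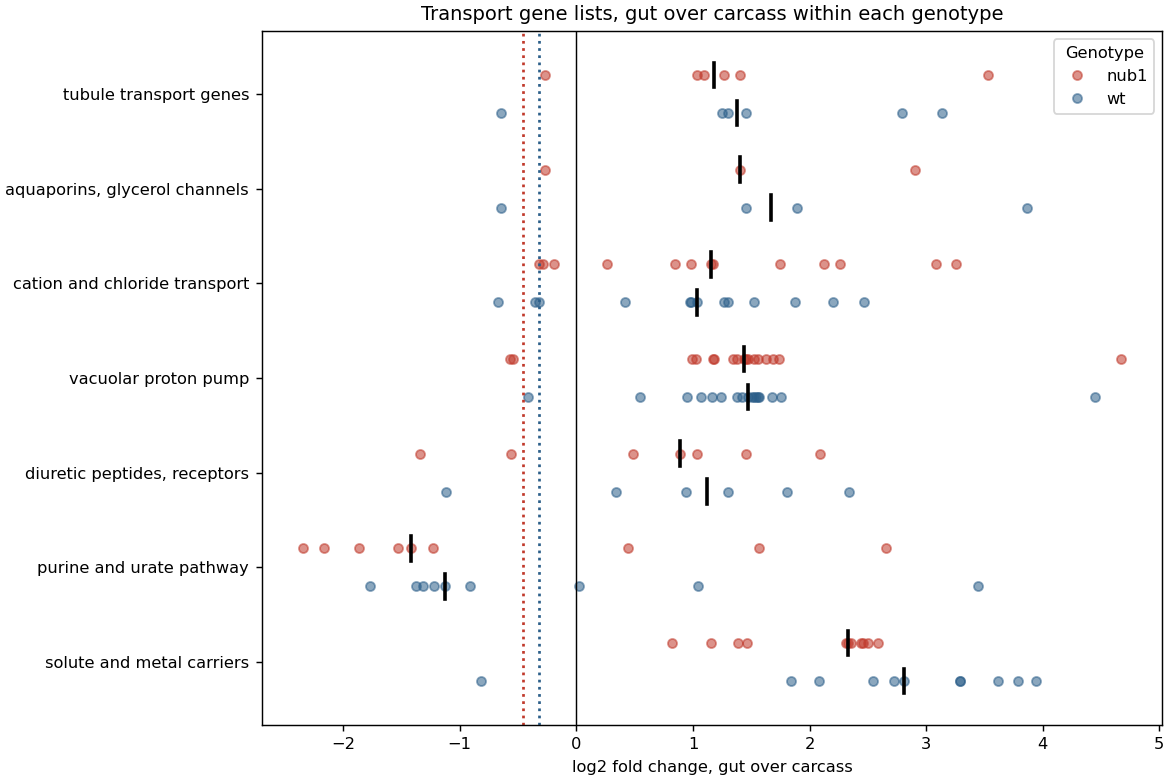
Log2 fold change of gut over carcass for each tested gene of 7 lists, in nub1 flies (red, upper row of each list) and wt flies (blue, lower row), with black bars at the list medians and dotted lines at the medians of all probe sets tested. The medians of the transport lists lie to the right of zero, at 1.03 to 2.81 apart from the peptides and receptors in nub1 flies (0.89), and those of the purine pathway to the left, at −1.41 and −1.13.

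Uro acts at the end of a pathway whose other genes were read from a list of 9. Here 2 of 9 were called in gut, and these fell in nub1 flies, against 6.13% of all probe sets called lower there. Prat2, for the first enzyme of purine synthesis, had 12.6, 12.2 and 12.3 on the nub1 gut arrays and 81.5, 80.3 and 62.1 on the wt gut arrays (log2 fold change −1.91, SE 0.14, adjusted p = 1.9e-06 from limma). Paics, for a later step, had 114, 226 and 133 on the nub1 gut arrays and 362, 354 and 371 on the wt gut arrays (−1.21, adjusted p = 4.5e-04), which was −0.66 without the arrays that carry ejaculatory duct transcripts. None of the 9 was called in carcass by limma, where 5 had an unadjusted p under 0.05, without a share of all probe sets to set beside it. The difference between the tissues was called lower for the same 2, at −1.43 for Prat2 and −1.04 for Paics (adjusted p = 8.7e-04 and 0.023). That of Prat2 was −0.85 at a pseudocount of 32. That of Paics was lost in 7 of 22 alternatives, with −0.48 (adjusted p = 0.059) without the arrays that carry ejaculatory duct transcripts, −0.94 (adjusted p = 0.062) without wt carcass array 3, −0.85 without nub1 gut array 1, −0.95 without nub1 gut array 3 and an adjusted p of 0.052 without nub1 carcass array 2.

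The genes that make uric acid and clear the product of Uro were looked at after their values were seen. The signal of ry, xanthine dehydrogenase, was 139, 86.9 and 128 on the nub1 gut arrays and 60.6, 58.1 and 47.1 on the wt gut arrays (0.96, adjusted p = 0.0018 from limma). That of mal, which fits its cofactor with sulfur, was 247, 236 and 249 on the nub1 gut arrays and 134, 136 and 137 on the wt gut arrays (0.80, adjusted p = 1.3e-05). Their arrays did not overlap between the genotypes, and both missed the 2-fold minimum. CG30016, the predicted hydroxyisourate hydrolase, was higher in gut than in carcass by 2.66 in nub1 flies and 3.44 in wt flies (adjusted p = 1.2e-07 and 1.2e-08). Its nub1 effect was 0.17 in gut (adjusted p = 0.49) and 0.96 in carcass (adjusted p = 0.0033), under 2-fold. The synthesis genes of the list lay on the carcass side, so that 6 of 9 were called lower in gut in nub1 flies and 5 in wt flies, with medians of −1.41 and −1.13. With arrays centred on bright probe sets 1 was called lower in wt flies.

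The profile of each gene over the 12 arrays was set against 8379 named probe sets that were measured in at least 1 group, by the root mean square difference of the centred log2 values. Nearest to Uro were mat (0.48), CG10514 (0.50), GstE5 (0.51), the tubule marker CG16727 (0.52) and Mur18B (0.55). mat had a mean signal of 1937 in nub1 gut, 249 in wt gut, 453 in nub1 carcass and 39.8 in wt carcass, a span much like that of Uro. Nearest to Irk3 were Oatp58Db (0.23), one of the tubule markers that fell in nub1 gut, and the cytochrome P450 gene Cyp6a9 (0.27), with 83.6 in nub1 gut, 309 in wt gut, 32.1 in nub1 carcass and 47.1 in wt carcass. The nearest to Irk1 were beta-Spec (0.07) and CRAT (0.10), to Irk2 CG10300 and Whamy (0.15 each), to Lkr bsk (0.15) and the pump subunit gene Vha36-1 (0.16), to Drip CG6836 (0.11) and Fim (0.13), and to Prip CG13994 (0.07) and Dci (0.08). Nearness here means a like course over the same 12 arrays, in which tissue, genotype or both may differ.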

How the data were processed

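The authors hybridised RNA from nub1 and wt gut and carcass to Affymetrix Drosophila Genome 2.0 arrays and deposited MAS5 intensity values on a linear scale from Affymetrix Expression Console, with a trimmed mean (2% off each end) of 100 on every array. The sources used here give no software version, detection call or scan batch, and scanner files were not used here. The table holds 18952 probe sets, from which 183 controls of the array were dropped. Names came from the platform table, updated through RefSeq for 13544 probe sets and kept for 103, while 402 had several genes and 4720 none.

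The values, log2(signal + 10), were tested with limma (3.58.1, under R 4.3.3) on 1 model of 4 groups, eBayes with trend and no replicate block. Probe sets with a signal of at least 10 on all 3 arrays of a compared group were tested, and p-values were adjusted over all of them. Where every array of a group was under 10, the other group's mean was set against 10. The brightest probe set stood for a gene. All members were named, with up to 4 called genes of each list per comparison with the largest change, all tubule markers, and the nearest profiles (5 for Uro, 2 for the others). Members and lists were chosen with earlier results of these data known. On simulated data, 97% of changes of 1.5 on the log2 scale were called in gut (9883 probe sets tested) and 97% in carcass (8724 tested). The changed probe sets had a signal of at least 30 on all wt arrays, and noise was drawn independently for each probe set. These shares do not cover dimmer genes or the mixed organ content of the gut arrays. Alternatives changed the pseudocount (1, 32), the filter (none, 30), the scaling, the trend, the arrays, the model and the test. Pools within a group are separate sets of flies. Same-numbered arrays did not deviate together throughout (correlations −0.351 to 0.328), and gut and carcass were fitted as unpaired. These correlations cannot show whether gut and carcass share flies.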

Additional observations from a re-analysis of the deposited data

Results flagged for a closer look

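The difference of the nub1 effect between gut and carcass was called for Irk3 and for 10 genes of the other lists. Of all 10199 probe sets tested for it, 1.86% were called higher in gut and 4.7% lower. For CG7881, Oatp58Db and bib, carcass signals lay near or under 10. Their calls thus do not show that the effects in the 2 tissues differ. For Irk3 the log2 fold change in gut minus that in carcass was −1.70 (SE 0.26, adjusted p = 0.0015 from limma). Among the tubule markers it was −1.35 for CG17752 (SE 0.21, adjusted p = 0.0016), −1.11 for Oatp58Dc (SE 0.23, adjusted p = 0.0081) and 1.97 for ZnT35C (SE 0.20, adjusted p = 8.6e-05). The fitted values of −2.32 for CG7881 (SE 0.24, adjusted p = 1.2e-04) and −1.72 for Oatp58Db (SE 0.30, adjusted p = 0.0034) rest on carcass signals near or under 10, depend on the pseudocount and are no measure of size. It was −1.43 for Prat2 (SE 0.20, adjusted p = 8.7e-04) and −1.04 for Paics (SE 0.26, adjusted p = 0.023), and the call of Paics was lost in 7 of 22 alternatives, with −0.48 (adjusted p = 0.059) without the arrays that carry ejaculatory duct transcripts. For bib it was −1.58 (SE 0.38, adjusted p = 0.019), for VhaM9.7-a −1.12 (SE 0.34, adjusted p = 0.048) and for Pde6 1.28 (SE 0.27, adjusted p = 0.0092). The call of VhaM9.7-a was lost in 16 of 21 alternatives, among them each that leaves out 1 carcass array or 1 wt gut array and the one without nub1 gut array 2 (−0.76), with an adjusted p of up to 0.14. That of Pde6, which had 2 of 3 nub1 carcass arrays under 10, was lost without the arrays that carry ejaculatory duct transcripts (0.75, adjusted p = 0.058) and at a pseudocount of 32 (0.72). The call of bib was lost without the arrays that carry ejaculatory duct transcripts (−1.02, adjusted p = 0.12).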

How the results depend on the processing

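Groups of 3 arrays, the absence of detection calls and the mixed organ content of the gut arrays limit what was measured. Of the counts of calls among the members and among all probe sets, 233 stayed within 1.5 times their value under an alternative and 8 did not. Counts in the other lists moved as well, as given beside them for the proton pump, purine and carrier genes. All 908 probe sets called in gut became 549 at a pseudocount of 32 and 539 with the test named in the methods. In carcass 417 became 230 at a pseudocount of 32, and for the difference 669 became 403 at a pseudocount of 32 and 1070 without the arrays that carry ejaculatory duct transcripts. Between gut and carcass of nub1 flies, 3622 became 2140 without those arrays, and the 5 members called became 3 at a pseudocount of 32 and 2 without those arrays. Arrays left out for ejaculatory duct or eggshell transcripts leave 1 array in a gut group, which is assumed to vary like the other groups. With 1 array left out at a time, the probe sets called were 896 to 970 in gut, 406 to 448 in carcass, 569 to 790 for the difference, 3217 to 4283 between gut and carcass of nub1 flies and 3866 to 4123 in wt flies, and the members called were 1, 0, 1, 4 to 5 and 5.

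Of the members' log2 fold changes, 768 kept their direction and their side of the threshold, 10 fell below it, 3 passed it and 21 changed sign, none of them called before the change, and the cause was not tested. In gut Irk1 became −0.19 without the arrays that carry ejaculatory duct transcripts and Lkr 0.0183 after quantile normalization. In carcass Irk2 became 0.00199 at a pseudocount of 1 and 0.0172 with arrays centred on bright probe sets, with −0.0784 to 0.148 when 1 array was left out, and Prip 0.56 with its other probe set. For the difference Irk1 became −0.0440 after quantile normalization and −0.36 without the ejaculatory duct arrays, with −0.0837 to 0.184 when 1 array was left out. Drip became 0.0310 at a pseudocount of 32, 0.0666 after quantile normalization and 0.0176 without the gut arrays of higher eggshell signal, with −0.125 to 0.0331 when 1 array was left out. Prip between gut and carcass of nub1 flies became 0.24 with centred arrays. With the replicate block, 906 probe sets were called in gut, 414 in carcass, 648 for the difference, 3618 in nub1 flies and 3962 in wt flies, and the members called were 1, 0, 1, 5 and 5, so that it moved no count of members.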

Other observations

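Few genes that relay the diuretic signals inside the cell were called between the genotypes. Of 6 second messenger genes tested in gut none was called by limma, where 1 had an unadjusted p under 0.05, and of 6 tested in carcass 1 was. This was Pde6, a phosphodiesterase that breaks down cyclic GMP, which fell by 1.29 on the log2 scale in nub1 carcass (adjusted p = 6.0e-04 from limma) and by 0.72 at a pseudocount of 32. On 2 of the 3 nub1 carcass arrays it was under 10. Pkg21D, a cyclic GMP dependent kinase, was under 10 on all carcass arrays and at least 2.81-fold higher in gut in nub1 flies and at least 2.81-fold higher in wt flies (adjusted p = 1.0e-05 and 8.8e-06). Both calls were lost at a pseudocount of 32. Of 5 transcription factor genes known from tubule development, tsh was called in gut, where it fell by 1.22 on the log2 scale in nub1 flies (adjusted p = 2.5e-04, and −0.81 at a pseudocount of 32).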
